A study of Mus musculus with 39 samples.

Results

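The transcripts of the cytosolic ribosomal proteins were followed in N2a cells, a mouse neuroblastoma line, collected 48 h after plasmids encoding RfxCas13d and a CRISPR RNA (crRNA) were introduced. Members were the gene symbols that start with Rpl or Rps followed by a digit, plus Rplp0, Rplp1, Rplp2 and Rpsa, without the kinase and binding-protein symbols and without the pseudogene symbols. The rule gave 89 members among the 25239 genes shared by both deposited tables, of which 54 belong to the large and 35 to the small subunit. It left out 8 pseudogene symbols and 11 kinase or binding-protein symbols.

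RfxCas13d is an RNA-guided ribonuclease that cuts the RNA its crRNA matches. All groups received RfxCas13d, and each group had 3 libraries. Wild-type N2a cells received a crRNA against Rbfox3 (crRNA 3), a crRNA against Mapt (crRNA 4 or crRNA 6), one against Map2 (crRNA 1 or crRNA 3) or one against Sik3 (crRNA 1 or crRNA 8), and all of these groups were set against the same 3 libraries with a non-targeting crRNA (NT of the WT set). Rbfox3 crRNA 5 was set against 3 other NT libraries (NT of the N set). In N2a cells with a stable tdTomato transgene, tdTomato crRNA 4 and tdTomato crRNA 7 were set against the NT libraries of that line. The labels do not say that replicates came from separate cultures, so p-values measure only the spread between these samples, which may be technical.

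Of the 5 targets, 4 were lower in their crRNA libraries. Sik3 stood at 0.94 to 2.37 FPKM with its crRNAs, against 7.37 to 9.04 FPKM in NT. Map2 was at 0.896 to 2.2 FPKM, against 8.15 to 9.06 FPKM in NT, and Mapt at 5.62 to 13.4 FPKM, against 25 to 26.6 FPKM in NT. The tdTomato transcript was at 120 to 163 FPKM with its crRNAs and at 846 FPKM or more in NT of that line. Rbfox3 stayed at or under 0.136 FPKM in every library of its 2 crRNAs and of their NT groups, so its knockdown could not be read. FPKM is a fragment count divided by transcript length and by the fragments counted in the library. Estimated depth was 10.4 to 16.9 M counted reads per library in the wild-type table and 2.2 to 4.3 M in the tdTomato-line table. Of 12 neuroblastoma markers, 11 passed the filter on low values in each table, while the 10 markers of other cell types summed to 7.82 to 17.2 FPKM and the immune marker Ptprc had a median of 0 FPKM in both tables.

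The ribosome is built from a small subunit, which reads the mRNA, and a large subunit, which joins amino acids. Most of its proteins are encoded by single expressed genes, and these genes have spread many processed pseudogene copies through the mouse genome. Their mRNAs are short and abundant and typically begin with a cytosine followed by a run of pyrimidines, the 5′ terminal oligopyrimidine (TOP) sequence, through which the mTOR pathway and LARP1 control their translation together. Rpl5 and Rpl11 also bind Mdm2 when ribosome assembly fails. Because reads of these mRNAs can match pseudogenes as well, FPKM values of single members depend on how a counting program handles such reads.

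The TOP sequence is shown here because it is the best-known feature of the family's mRNAs. A start with C followed by at least 4 further pyrimidines was searched on the transcribed strand, at the annotated start site in the RefSeq promoter table (GRCm38.p6). It was found in 15 of the 68 members present in that table (22.1%), in 8 of 42 large and 7 of 26 small subunit members, and in 813 of all 27025 symbols (3.01%). Allowing the run to begin anywhere from 5 bases before to 10 bases after the annotated start gave 35 members (51.5%) and 24.2% of all symbols. Below are 10 bases before and 20 bases from the start of 5 members, with the pyrimidine run in capitals. Rps18 (small subunit head) and Rpl38 are shown because they rose, Rps6 (the S6 kinase substrate) because it was not called in any comparison against NT, Rps27 for its paralogs, and Rpl15 for its long run.
Rps18, chr17:33955646-33955675, minus strand: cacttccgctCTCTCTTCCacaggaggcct
Rpl38, chr11:114668570-114668599, plus strand: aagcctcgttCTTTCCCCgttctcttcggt
Rps6, chr4:86857348-86857377, minus strand: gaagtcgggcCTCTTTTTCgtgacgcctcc
Rps27, chr3:90213629-90213658, minus strand: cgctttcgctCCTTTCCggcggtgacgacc
Rpl15, chr14:18270967-18270996, minus strand: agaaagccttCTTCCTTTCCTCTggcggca
A match at the annotated start is a description of these letters and not evidence of a regulated site.

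Several members are near copies of each other, and the following coding starts show how far reads could tell them apart. The first 90 coding bases are given from the GENCODE M21 transcripts (GRCm38), with the bases that differ from the first gene of each family in capitals.
Rps27: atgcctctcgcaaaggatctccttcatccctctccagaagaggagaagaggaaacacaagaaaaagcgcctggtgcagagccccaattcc
Rps27rt: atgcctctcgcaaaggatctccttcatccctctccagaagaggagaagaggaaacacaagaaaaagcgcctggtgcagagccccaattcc
Rps27l: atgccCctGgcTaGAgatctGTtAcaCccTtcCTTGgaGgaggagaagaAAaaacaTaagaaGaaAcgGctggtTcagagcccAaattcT
Rpl36a: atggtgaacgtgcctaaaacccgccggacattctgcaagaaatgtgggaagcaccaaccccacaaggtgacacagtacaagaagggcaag
Rpl36al: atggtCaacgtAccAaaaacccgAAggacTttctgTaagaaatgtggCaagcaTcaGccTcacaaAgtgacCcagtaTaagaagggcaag
These stretches lie at chr3:90213218-90213615 (Rps27), chr9:114982618-114982707 (Rps27rt), chr9:66946175-66946914 (Rps27l), chrX:134585717-134586164 (Rpl36a) and chr12:69183047-69183136 (Rpl36al), introns included. Rps27 and the retrogene Rps27rt were identical over all 255 coding bases. Rps27l differed from Rps27 at 61 of 255 bases, and Rpl36al from Rpl36a at 39 of 321. Rps27rt was listed at 0 in all 39 libraries, and reads of Rps27 and Rps27rt cannot be told apart over the coding sequence.

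In NT of the WT set, the highest large subunit member was Rpl41, the shortest ribosomal protein, at 6430 FPKM, followed by Rpl8 at 4602 FPKM. The highest small subunit member was Rps15 at 3149 FPKM. Levels ran over several orders of magnitude within both subunits, although the proteins are mostly present at 1 copy per ribosome. In that group 4, 26, 16 and 8 large subunit members lay under 1, from 1 to 100, from 100 to 1000 and at or above 1000 FPKM, and 2, 18, 7 and 8 small subunit members did. The 10 highest large subunit members gave 83.2% of the summed FPKM of that subunit, and the 10 highest small subunit members gave 89.5%. Neighbouring ranks often overlapped: Rps26 had 1105 to 1365 FPKM and Rps9 had 1138 to 1193 FPKM in these libraries.

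Many members share sequence with other annotated transcripts. Of 86 members with an annotated transcript, 41 had under 50% of their 75-base windows unique among annotated transcripts, and 24 had under 50% of their 150-base windows unique. The level in NT of the WT set and the percent of unique 75-base windows had a Spearman's rho of 0.30 over 86 members (a description across genes, which are not replicates). Rps27, with 1.5% of its windows unique, was listed at 24.7 FPKM and Rpl10, with 8.1%, at 80.9 FPKM, while Rpl8 (95.1%) was among the highest. Pseudogene symbols carried reads: Rps18 itself was at 46.9 ± 3.04 FPKM and its pseudogene Rps18-ps4 at 1914 ± 49.7 FPKM in NT of the WT set (SD, n = 3), and Rpl14-ps1 was at 2002 ± 64.8 FPKM. Reads from sequence that a member and a pseudogene share cannot be told apart, and their part in the listed levels was not tested.

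The subunit sums were higher than in NT with the tdTomato crRNAs and lower than in NT, on average, with the crRNAs of the WT set. In the tdTomato line the large subunit had a sum of 32323 ± 1330 FPKM (crRNA 4) and 32725 ± 1244 FPKM (crRNA 7), against 24587 ± 768 FPKM in NT (SD, n = 3 each). The small subunit summed to 20925 ± 1079 and 21635 ± 630 FPKM with these crRNAs, against 17276 ± 801 FPKM in NT. In both subunits all 6 crRNA libraries lay above the 3 NT libraries. Rbfox3 crRNA 5 had 31175 ± 411 FPKM in the large and 20630 ± 280 FPKM in the small subunit, against 28614 ± 2358 and 19677 ± 1853 FPKM in NT of the N set, with overlap in both. As a percent of the summed FPKM of all genes, the large subunit did not overlap, at 6.71 to 6.81% with Rbfox3 crRNA 5, against 6.05 to 6.61% in NT of the N set, and the small subunit did, at 4.45 to 4.52%, against 4.12 to 4.61% in NT. On that scale too the tdTomato crRNA libraries lay above NT, at 6.54 to 7.00%, against 5.49 to 5.77% in NT, for the large and 4.17 to 4.60%, against 3.85 to 4.12% in NT, for the small subunit. The WT set had mean large subunit sums from 23227 FPKM (Sik3 crRNA 1) and 23266 FPKM (Map2 crRNA 1) to 26939 FPKM (Rbfox3 crRNA 3), against 27316 ± 1248 FPKM in NT. Its small subunit sums ran from 16194 FPKM (Sik3 crRNA 1) to 18616 FPKM (Map2 crRNA 3), against 19577 ± 713 FPKM in NT. The sums were dominated by the few highest members and got no test. In such bulk samples a change in some cells and a change in all cells cannot be told apart. FPKM is relative to the fragments counted in each library, so RNA per cell cannot be read from the sums.

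**Figure D1:**
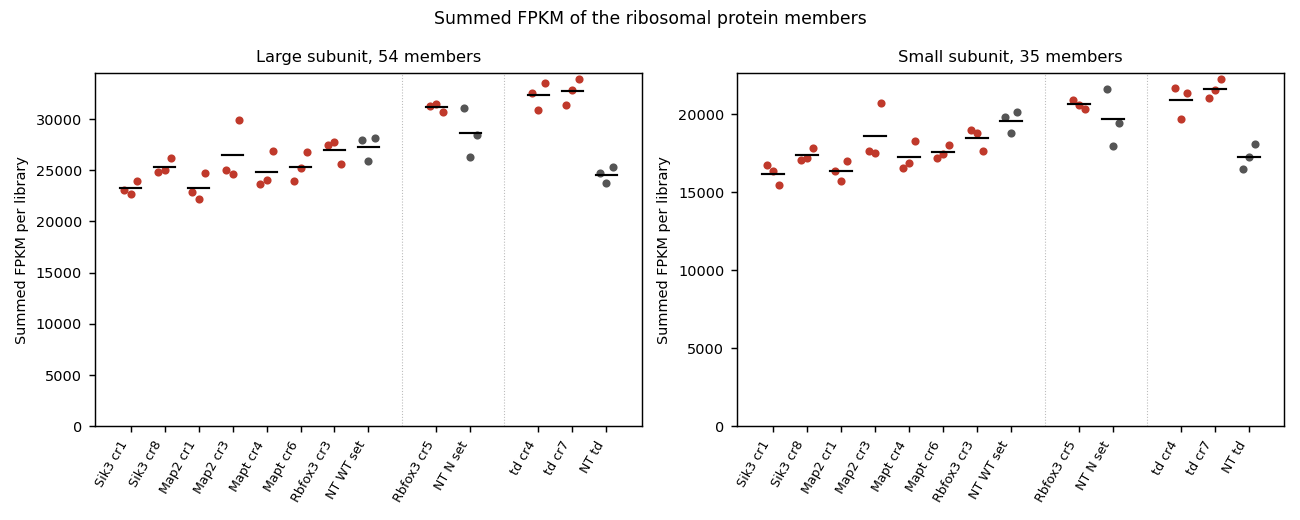
Summed FPKM per library (vertical axes, starting at 0) of the 54 large and 35 small subunit members, with crRNA libraries in red, NT libraries in grey, a line at the group mean, and dotted lines between the WT set, the N set and the tdTomato line. All 6 tdTomato crRNA libraries lay above the 3 NT libraries of that line, and the Sik3 crRNA 1 and Map2 crRNA 1 libraries lay below NT of the WT set.

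Comparisons of single members used limma on log2(FPKM + 0.5), a scale that understates the change of low genes, with the library series in the name as a covariate. A member was called higher or lower at a Benjamini-Hochberg adjusted p under 0.05 over all genes tested. Of the 89 members, 83 (50 large, 33 small) passed the filter of a mean of at least 1 FPKM in the wild-type table and 85 (52 large, 33 small) in the tdTomato-line table. Rpl26, Rpl3l, Rps27rt and Rps4l failed in both tables, and Rpl10l and Rpl30 failed only in the wild-type table.

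In the tdTomato line, members of both subunits rose with both tdTomato crRNAs. With crRNA 7, 36 of 52 large and 23 of 33 small subunit members rose and none fell, while 6.72% of all 11852 genes tested rose and 11.3% fell. With crRNA 4, 32 large and 18 small subunit members rose, none of the large (1 at an unadjusted p under 0.05, limma) and 1 of the small fell, while 6.46% of all genes rose and 4.28% fell. Median log2 fold changes were 0.48 in both subunits with crRNA 7 and 0.41 (large) and 0.30 (small) with crRNA 4, beside medians of −0.13 and −0.06 over all genes tested. For the 0 lower calls with crRNA 7, limma gave 0 members lower at an unadjusted p under 0.05. Between crRNA 7 and crRNA 4 no member was called by limma (16 higher and 4 lower at an unadjusted p under 0.05), and 0.00844% and 0.0422% of all genes were higher and lower.

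Rpl36a, a protein of the tRNA exit site, rose most in the large subunit. Its libraries stood at 112, 128 and 97.9 FPKM (crRNA 4) and 91.1, 107 and 123 FPKM (crRNA 7), against 33.9, 45.7 and 27.4 FPKM in NT. All 6 crRNA libraries lay above the 3 NT libraries, with log2 fold changes of 1.67 ± 0.17 (SE, limma adjusted p = 0.00057) and 1.59 ± 0.17 (adjusted p = 0.000739). Rpl31, which lies near the exit of the nascent chain, stood at 75.5, 70.9 and 77.3 FPKM (crRNA 4) and 57, 75.7 and 75.7 FPKM (crRNA 7), against 28.5, 33.8 and 26.2 FPKM in NT. Its log2 fold changes were 1.33 ± 0.12 and 1.22 ± 0.12 (limma adjusted p = 0.000256 and 0.000434). Rpl34, also of the large subunit, rose by 1.19 ± 0.13 with crRNA 7 and by 0.65 ± 0.13 with crRNA 4, and the difference between them was not called (0.54 ± 0.13, limma adjusted p = 0.206). Rpl38, which mouse genetics ties to the translation of Hox mRNAs, was at 22.3, 27.4 and 28.9 FPKM with crRNA 4, against 8.86, 13.8 and 14.9 FPKM in NT (log2 fold change 1.06 ± 0.11).

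In the small subunit, Rps29, a zinc-binding protein of the subunit head, stood at 42.2, 14.3 and 42.3 FPKM (crRNA 4) and 31.5, 39 and 44.1 FPKM (crRNA 7), against 13.9, 13.7 and 7.22 FPKM in NT. The second crRNA 4 library lay just above the highest NT library. The log2 fold changes were 1.37 ± 0.38 (limma adjusted p = 0.0464) and 1.72 ± 0.38 (adjusted p = 0.0147). Its crRNA 4 call was lost with the length trend removed, without the series term, without the filter, within the LDK libraries, with the replicate block (log2 fold change 1.37), and without any single library of NT or crRNA 4 other than crRNA 4 replicate 2. Its crRNA 7 call was lost within the LDK libraries and without NT replicate 1 or 3 and without crRNA 7 replicate 2 or 3. Rps28, a small protein near the mRNA exit channel, had 56.6, 74.5 and 65.8 FPKM with crRNA 4, against 19.1, 24.7 and 29 FPKM in NT (log2 fold change 1.43 ± 0.12, adjusted p = 0.000197). With crRNA 7 it had 28.7, 48.2 and 53.2 FPKM, which overlapped NT (log2 fold change 0.80 ± 0.12). Rps27 rose by 1.22 ± 0.13 with crRNA 4 and 0.69 ± 0.13 with crRNA 7. Rps27a, which is made as a fusion with ubiquitin, and the retrogene Rps23rg1 rose by 0.74 ± 0.10 and 0.89 ± 0.14 with crRNA 7.

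The 1 lower member was Rps7, named here after its values were seen. It had 447, 303 and 321 FPKM with crRNA 4, against 794, 427 and 405 FPKM in NT, and so the groups overlapped (log2 fold change −0.55 ± 0.09, limma adjusted p = 0.00381). In all 3 groups of the tdTomato line the first replicate, whose library name begins with another series (LDM) than the other replicates (LDK), was the highest in Rps7. It was also the highest in Rps18, with 416 FPKM in crRNA 4, 555 FPKM in crRNA 7 and 380 FPKM in NT, and each group holds 1 such library.

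The most abundant members were also higher. Rpl41 stood at 8829, 8525 and 9701 FPKM (crRNA 4) and 7430, 8780 and 9137 FPKM (crRNA 7), against 5067, 5568 and 6047 FPKM in NT, and rose by 0.70 ± 0.06 and 0.60 ± 0.06 on the log2 scale. Rps15 rose by 0.50 ± 0.08 and 0.48 ± 0.08. The stalk proteins, which recruit elongation factors, split: Rplp2 rose by 0.44 ± 0.08 and 0.56 ± 0.08, whereas Rplp0 had −0.09 ± 0.04 and −0.02 ± 0.04, and Rplp1 had −0.21 ± 0.07 and −0.00 ± 0.07, none of them called. Of the 5S particle proteins, Rpl11 rose by 0.49 ± 0.11 and 0.55 ± 0.11, and Rpl5 was not called (0.18 ± 0.13 and 0.24 ± 0.13).

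The counts in this line depended on how the library series was treated. Without the series term 18 members were higher with crRNA 4 and 22 with crRNA 7, in place of 50 and 59, and within the LDK libraries alone 37 and 55 were. Higher calls over all genes also became fewer without the series term and with the length trend removed, as listed further below, so these drops are not particular to the members. Counts over all genes within the LDK libraries or without a single library are not given here. Without crRNA 4 replicate 3 the crRNA 4 count was 32 higher and 2 lower, and with the trend on transcript length removed it was 24 higher and 4 lower, with a large subunit median of 0.27, and 0.34 with crRNA 7. Scaling each library to a common median of gene ratios moved the median over all genes with crRNA 7 to −0.01. Then 66 members were higher, and 1242 of all genes rose and 553 fell, in place of 796 and 1334. With crRNA 4 that scaling gave 946 genes higher and 370 lower, in place of 766 and 507.

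**Figure D2:**
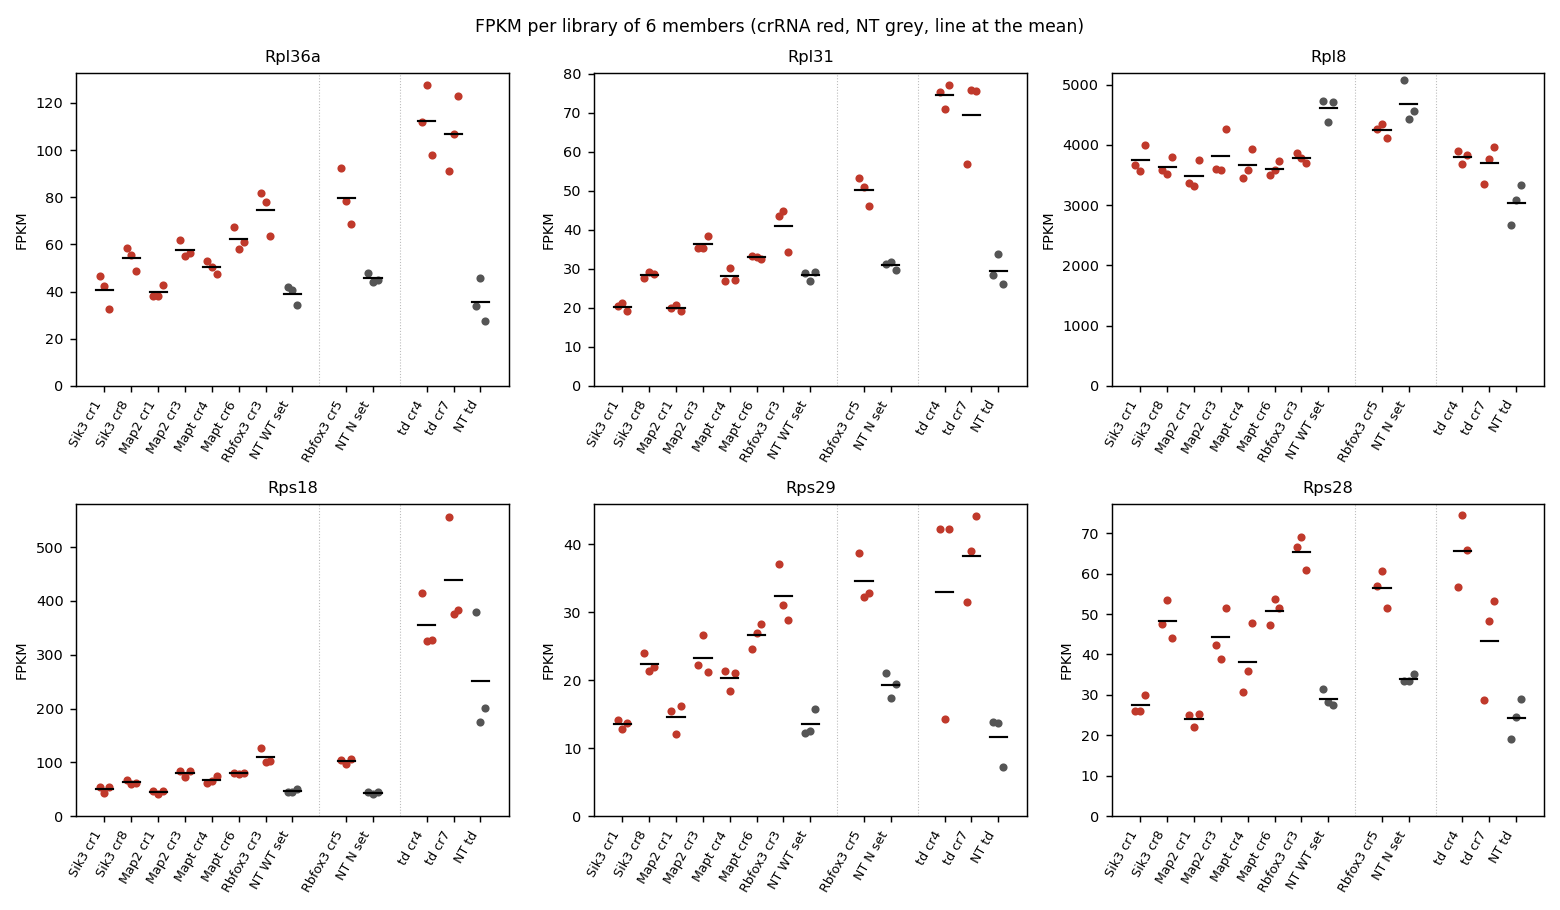
FPKM per library of 6 members (vertical axes, starting at 0), with crRNA libraries in red, NT libraries in grey and a line at the group mean, in the WT set, the N set and the tdTomato line. Rpl36a and Rpl31 were higher with both tdTomato crRNAs and Rbfox3 crRNA 5, and Rpl8 was lower than NT with the crRNAs of the WT set but higher than NT with the tdTomato crRNAs.

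Members of both subunits also rose with Rbfox3 crRNA 5. Of 50 large subunit members tested, 27 rose and 2 fell, and of 33 small subunit members 13 rose and none fell, while 12.6% of all 11553 genes tested rose and 13.1% fell. For the 0 lower small subunit calls limma gave 0 at an unadjusted p under 0.05. The median log2 fold change was 0.27 in the large and 0.15 in the small subunit, beside 0.00 over all genes. All 3 crRNA libraries lay above all 3 NT libraries in 51 of the 83 members and below them in 2. The same count over all genes is not given here, so these 2 counts have no background to be read against.

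Rps18, a head protein of the small subunit, rose most. It had 104, 96.8 and 106 FPKM with Rbfox3 crRNA 5, against 44.9, 41.7 and 45.5 FPKM in NT of the N set (log2 fold change 1.21 ± 0.09, limma adjusted p = 5.91e-10). The pseudogene Rps18-ps4 was listed far above Rps18 in NT of the WT set, and the part of shared reads in this rise was not tested. Rps29 had 38.6, 32.2 and 32.8 FPKM, against 21, 17.3 and 19.5 FPKM in NT (0.82 ± 0.12), and Rps27a averaged 95.9 ± 3.72 FPKM, against 53.9 ± 6.48 FPKM in NT (0.83 ± 0.11). In the large subunit Rpl37a, a zinc-finger protein, had 73.5, 74.8 and 68 FPKM, against 43.1, 35.8 and 40.3 FPKM in NT (0.85 ± 0.10, adjusted p = 1.44e-06). Rpl36a had 92.4, 78.3 and 68.6 FPKM, against 47.7, 44.2 and 44.8 FPKM in NT (0.79 ± 0.10). Rpl10, which joins the large subunit last, averaged 146 ± 3.63 FPKM, against 89.4 ± 7.45 FPKM in NT (0.71 ± 0.12). The groups did not overlap in any of these members.

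The 2 members that fell were highly abundant. Rplp0, the base of the stalk, had 1189, 1187 and 1156 FPKM, against 1414, 1288 and 1277 FPKM in NT (log2 fold change −0.17 ± 0.04, limma adjusted p = 0.00377). Rpl8, a core protein near the catalytic centre, had 4269, 4346 and 4113 FPKM, against 5067, 4422 and 4555 FPKM in NT (−0.14 ± 0.05, adjusted p = 0.0489). The Rpl8 call was lost without any single library except NT replicate 4, so the count of lower members was 1 in these fits. Without NT replicate 4 the count of higher members was 28, and with the length trend removed the large subunit median was 0.18. Counts over all genes in these fits are not given here. All 6 libraries carry the LDL series in their names.

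With the 7 crRNAs of the WT set some members were higher and others lower in the same libraries, as were the genes tested as a whole. These comparisons share their 3 NT libraries. With Rbfox3 crRNA 3, 18 of 50 large and 9 of 33 small subunit members rose and 5 and 6 fell, while 19.1% of all genes rose and 13.4% fell. With Sik3 crRNA 8, 20 large and 10 small subunit members rose and 7 and 7 fell (all genes 21.7% and 21.2%). With Mapt crRNA 6, 15 and 7 rose and 9 and 7 fell (all genes 22.2% and 14.6%), and with Map2 crRNA 3, 11 and 7 rose and 4 and 4 fell (all genes 19.8% and 13.4%). With Mapt crRNA 4, 9 and 5 rose and 7 and 9 fell (all genes 21.8% and 16.7%). With Sik3 crRNA 1, 5 large and 2 small subunit members rose and 18 and 16 fell (all genes 23.6% and 21.1%), and with Map2 crRNA 1, 5 and 1 rose and 19 and 15 fell (all genes 25.8% and 23.9%). Several of these member shares lay near the share of all genes and are not particular to the family. They include both shares with Map2 crRNA 3, Mapt crRNA 6 and Mapt crRNA 4. The lower shares with Sik3 crRNA 8 and Rbfox3 crRNA 3 are also among them. Of the 83 members tested, 41.0% fell and 8.43% rose with Sik3 crRNA 1, 41.0% fell and 7.23% rose with Map2 crRNA 1, and 36.1% rose with Sik3 crRNA 8 and 32.5% with Rbfox3 crRNA 3. Rescaled FPKM turned the balance of all genes to more lower than higher calls with Map2 crRNA 3 (1759 higher, 2077 lower), Mapt crRNA 6 (1922, 2240) and Rbfox3 crRNA 3 (1767, 1955), in place of 2291 and 1551, 2563 and 1687, and 2210 and 1544.

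The median log2 fold change was −0.11 in the large and −0.20 in the small subunit with Sik3 crRNA 1 and −0.18 and −0.21 with Map2 crRNA 1. It was 0.11 and −0.00 with Rbfox3 crRNA 3, and lay from −0.01 to 0.05 in the large and from −0.10 to −0.03 in the small subunit with the other 4 crRNAs. Over all genes the medians were 0.01 to 0.05. In each of the 7 comparisons the small subunit median was below the large subunit median, a difference that was not tested.

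Among the members that rose, Rps29 had 37.1, 31.1 and 28.8 FPKM with Rbfox3 crRNA 3, 24.6, 26.9 and 28.2 FPKM with Mapt crRNA 6 and 21.4, 18.4 and 21.1 FPKM with Mapt crRNA 4, against 12.3, 12.6 and 15.8 FPKM in NT of the WT set. Its log2 fold changes were 1.23 ± 0.12, 0.95 ± 0.12 and 0.57 ± 0.12 (limma adjusted p = 2.16e-08, 9.66e-07 and 0.000396). Rps29 was not called with Sik3 crRNA 1 (0.01 ± 0.12) or Map2 crRNA 1 (0.10 ± 0.12). Rpl37a rose by 1.00 ± 0.10 with Rbfox3 crRNA 3, 0.71 ± 0.10 with Map2 crRNA 3 and 0.68 ± 0.10 with Mapt crRNA 6. Rps28 rose by 0.72 ± 0.11 with Sik3 crRNA 8 to 48.3 ± 4.72 FPKM, against 29.0 ± 2.20 FPKM in NT, and Rps18 rose by 0.77 ± 0.09 with Map2 crRNA 3 to 80.6 ± 6.33 FPKM, against 46.9 ± 3.04 FPKM in NT. Both rose more with Rbfox3 crRNA 3 (Rps28 by 1.16 ± 0.11, Rps18 by 1.22 ± 0.09). With Sik3 crRNA 1 and Map2 crRNA 1, Rps28 averaged 27.4 and 24.2 FPKM and Rps18 averaged 50.4 and 45.6 FPKM. Rpl35a rose by 0.72 ± 0.10 with Sik3 crRNA 8 and 0.39 ± 0.10 with Sik3 crRNA 1, and Rpl22l1, a paralog of Rpl22, rose by 0.47 ± 0.12 with Map2 crRNA 1. Rps3a1 rose by 0.25 ± 0.09 with Sik3 crRNA 1 and Rpl29 by 0.54 ± 0.11 with Mapt crRNA 4. With Sik3 crRNA 8, Rpl22l1 rose by 0.53 ± 0.12 and Rps3a1 by 0.44 ± 0.09, and neither was called with Map2 crRNA 3 (0.11 ± 0.12 and −0.04 ± 0.09). Rpl29 rose by 0.89 ± 0.11 with Rbfox3 crRNA 3, and with Map2 crRNA 1 it averaged 4.46 FPKM, against 5.28 FPKM in NT.

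The members that fell included Rpl7l1, a paralog of Rpl7, and Rps27l, a paralog of Rps27 and a p53 target gene. Rpl7l1 had 34.4, 34.7 and 31 FPKM with Sik3 crRNA 1, 36.4, 31.2 and 30.3 FPKM with Sik3 crRNA 8 and 30.7, 30.2 and 29.7 FPKM with Map2 crRNA 1, against 56.1, 55.2 and 54.8 FPKM in NT of the WT set. Its log2 fold changes were −0.72 ± 0.05, −0.76 ± 0.05 and −0.86 ± 0.05 (limma adjusted p = 3.29e-10, 1.39e-10 and 8.08e-12). It was called lower in all 7 comparisons, and the smallest change was −0.21 ± 0.05 with Map2 crRNA 3. Its paralog Rpl7 was called higher in all 7, by 0.16 to 0.21 on the log2 scale. Rps27l was called lower in 6 of the 7 comparisons, with −0.53 ± 0.08 with Sik3 crRNA 1, −0.42 ± 0.08 with Sik3 crRNA 8 and −0.33 ± 0.08 with Mapt crRNA 4, and was not called with Map2 crRNA 3 (−0.19 ± 0.08, adjusted p = 0.0539). Neither was called with Rbfox3 crRNA 5 (Rpl7l1 0.10 ± 0.05, Rps27l 0.14 ± 0.08). With tdTomato crRNA 4 and 7, Rps27l was called higher (0.28 ± 0.07 and 0.33 ± 0.07) and Rpl7l1 was not called (−0.04 ± 0.09 and −0.16 ± 0.09). The crRNA 4 value of Rps27l was −0.10 with the length trend removed, and its call was lost without any single library of either group other than crRNA 4 replicate 2.

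Members of high and of low level were among the others that fell. Rplp0 fell by 0.39 ± 0.04 with Mapt crRNA 6 to 944 ± 50.5 FPKM, and by 0.33 ± 0.04 with Map2 crRNA 3 to 984 ± 83.3 FPKM, against 1239 ± 74.9 FPKM in NT of the WT set. It was called lower in all 7 comparisons, each with no overlap with NT. Rps9 fell by 0.42 ± 0.07 with Mapt crRNA 6 and by 0.24 ± 0.07 with Map2 crRNA 3. Rplp1 and Rps15a fell by 0.35 ± 0.08 and 0.33 ± 0.11 with Rbfox3 crRNA 3, and Rps23rg1 fell by 0.56 ± 0.16 with Sik3 crRNA 1 and by 0.53 ± 0.16 with Map2 crRNA 1.

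Rpl8, described here after its values were seen, was called lower in all 7 comparisons. Rpl8 was at 3321 to 4270 FPKM in the 21 crRNA libraries, against 4374 to 4730 FPKM in NT of the WT set. It was called higher with both tdTomato crRNAs, at 3348 to 3963 FPKM, against 2664 to 3339 FPKM in NT of that line. In neither set did the crRNA and NT ranges overlap.

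Single libraries moved several of these counts. Counts over all genes in the fits below are not given here, so a shift may not be particular to the members. Without NT replicate 1 the lower counts were 21 in place of 34 with Map2 crRNA 1, 4 in place of 8 with Map2 crRNA 3, 10 in place of 16 with Mapt crRNA 4 and with Mapt crRNA 6, and 6 in place of 11 with Rbfox3 crRNA 3. Without Map2 crRNA 3 replicate 1, 2 or 3 its lower count was 5, 4 or 13, and without Rbfox3 crRNA 3 replicate 3 its lower count was 6. The higher count was 4 in place of 7 with Sik3 crRNA 1 without NT replicate 6 and 3 in place of 6 with Map2 crRNA 1 without its replicate 1. Within the LDK libraries alone, the lower counts were 31 with Mapt crRNA 4 and 23 with Map2 crRNA 3, and the other counts were 33 higher and 11 lower (Rbfox3 crRNA 3), 21 and 22 (Mapt crRNA 6), 6 and 41 (Map2 crRNA 1), 28 and 17 (Sik3 crRNA 8) and 4 and 38 (Sik3 crRNA 1), with 14 higher for Map2 crRNA 3 and 13 for Mapt crRNA 4.

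**Figure D3:**
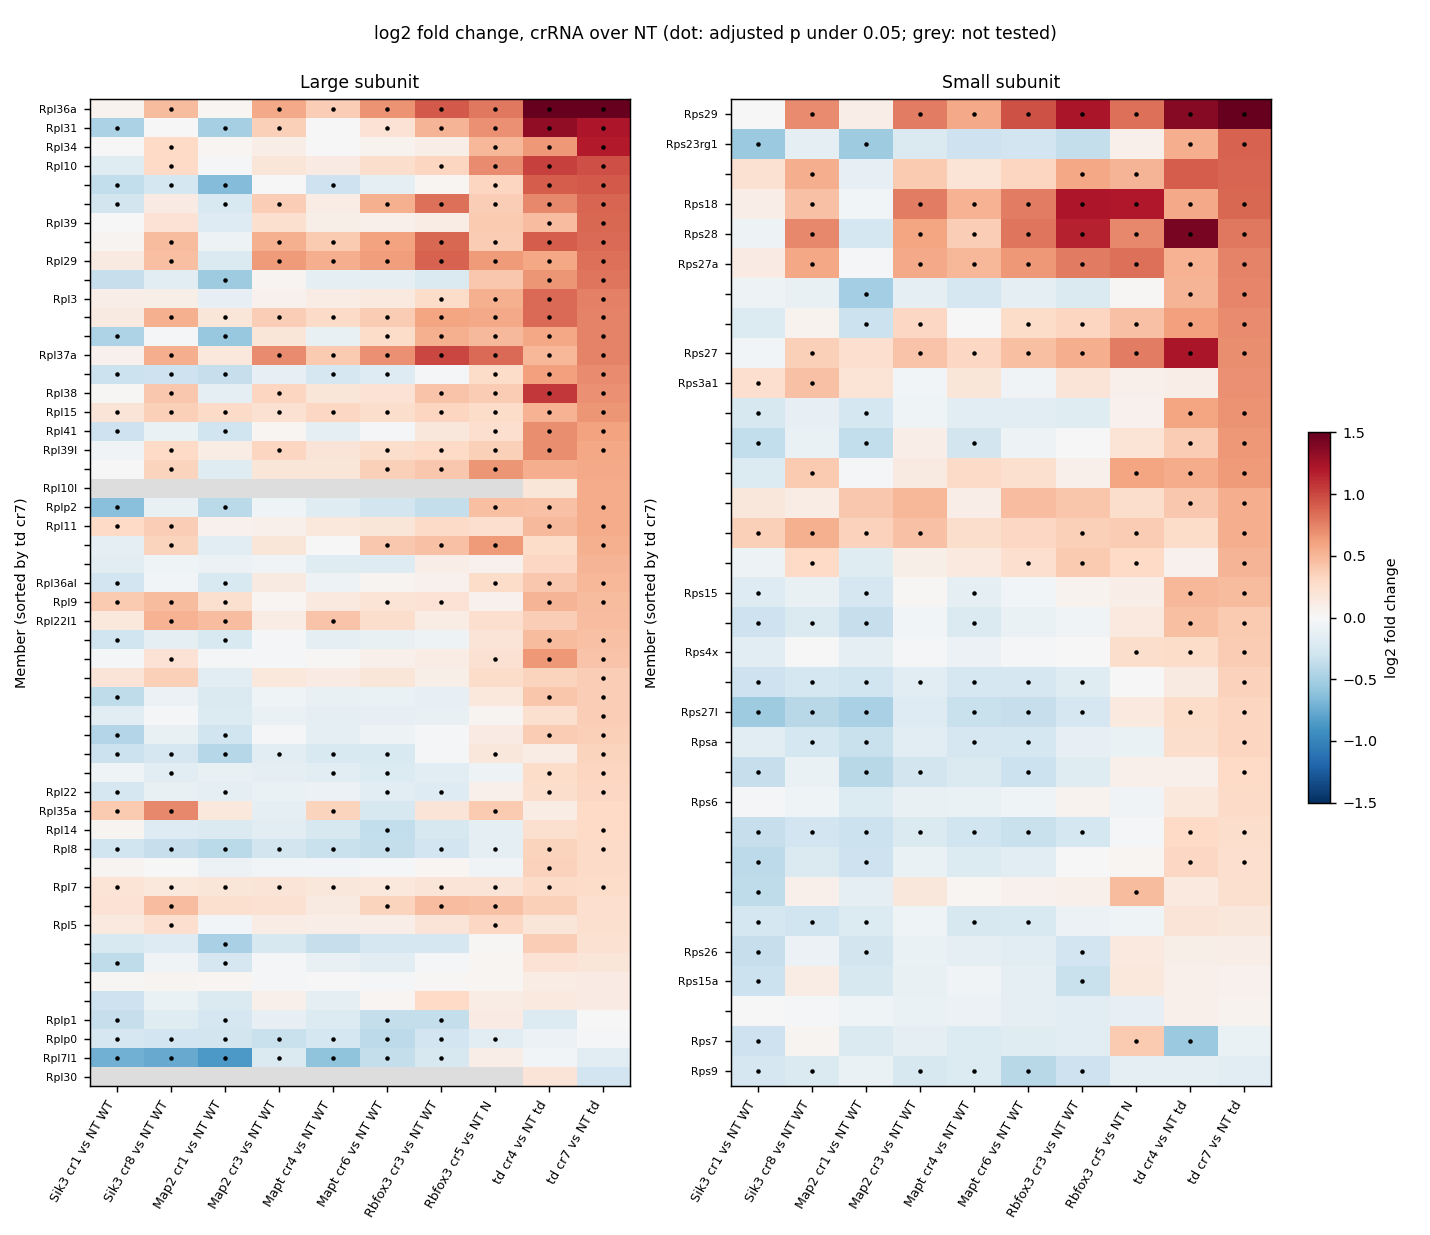
Log2 fold change of each crRNA over its NT group (color, from blue for lower to red for higher, ending at ±1.5) for the members tested, with a dot where the limma adjusted p was under 0.05 and grey where the member was not tested. The columns for Sik3 crRNA 1 and Map2 crRNA 1 are mostly blue, those for both tdTomato crRNAs are mostly red, and Rpl7l1, Rplp0 and Rpl8 are blue in all 7 columns of the WT set. Rows are labelled for members described in the text.

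The question of whether 2 crRNAs of 1 target differ was put by direct comparison. Sik3 crRNA 8 was higher than Sik3 crRNA 1 in 12 large and 8 small subunit members and lower in none (1.52% and 1.09% of all genes were higher and lower), with medians of 0.21 and 0.18. For the 0 lower calls limma gave 0 at an unadjusted p under 0.05. Rps28 led with 47.5, 53.4 and 44.1 FPKM with Sik3 crRNA 8, against 26.1, 26.1 and 30.1 FPKM with Sik3 crRNA 1 (log2 fold change 0.80 ± 0.11, limma adjusted p = 0.000247), and Rps29 followed (0.70 ± 0.12). The count of 20 was 6 without Sik3 crRNA 1 replicate 3 and 9, 7 and 8 without Sik3 crRNA 8 replicates 1, 2 and 3. Counts over all genes in fits without 1 library are not given here or below, so a shift may not be particular to the members.

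Map2 crRNA 3 was higher than Map2 crRNA 1 in 21 large and 12 small subunit members and lower in 3 and 1 (21.3% and 14.6% of all genes), with medians of 0.21 and 0.18. Rpl31 had 35.5, 35.5 and 38.4 FPKM with Map2 crRNA 3, against 19.9, 20.7 and 19.2 FPKM with Map2 crRNA 1 (0.85 ± 0.07, limma adjusted p = 2.11e-09). Rpl22l1 was among the 4 lower members (−0.35 ± 0.12), with Rpl35a, Rps3a1 and Rpl9. The lower count was 0 without Map2 crRNA 1 replicate 1 and 2 and 1 without Map2 crRNA 3 replicates 1 and 2. Mapt crRNA 6 differed from Mapt crRNA 4 in fewer members, with 5 large and 2 small higher, 1 large lower and no small lower (2 at an unadjusted p under 0.05, limma), beside 4.48% and 2.98% of all genes (518 and 344 genes, and 416 and 478 with rescaled FPKM). The lower one was Rpl35a, at 9.98 ± 1.29 FPKM with Mapt crRNA 6 and 15.1 ± 0.40 FPKM with Mapt crRNA 4 (−0.58 ± 0.10, adjusted p = 0.000929). The higher count of 7 was 3 or 4 without any single library of these groups except Mapt crRNA 6 replicate 3, without which it was 5.

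The NT groups of the 2 wild-type sets differed from each other too. NT of the N set was higher than NT of the WT set in 7 large and 2 small subunit members and lower in 9 and 5 (26.5% and 19.9% of all genes). The median was −0.02 in both subunits. Rpl7l1 had 81, 75.2 and 78.3 FPKM in NT of the N set, against 56.1, 55.2 and 54.8 FPKM in NT of the WT set (0.53 ± 0.06, limma adjusted p = 9.02e-08), beside crRNA changes of −0.86 to −0.21 in the WT set. Rps29 was higher by 0.47 ± 0.12 and Rpl22l1 lower by 0.41 ± 0.13. Without NT replicate 4 of the N set the lower count was 7 in place of 14. All 3 libraries of the N set and only 1 of the WT set carry the LDL series, so set and series are hard to separate, and without the series term 8 were lower.

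Members were divided at a mean level of 100 FPKM. With Rbfox3 crRNA 3, 23 of the 43 members with a mean under 100 FPKM rose and 2 fell (median log2 fold change 0.32), and of the 40 members at or above 100 FPKM 4 rose and 9 fell (−0.07). Of all genes, 19.5% rose and 12.1% fell under 100 FPKM with this crRNA, and 14.5% rose and 30.8% fell at or above it. With Sik3 crRNA 8 the counts were 25 higher and 2 lower under 100 FPKM (all genes 21.7% and 20.5%), and 5 higher and 12 lower at or above it (all genes 20.8% and 30.45%). With Sik3 crRNA 1 both classes held more lower than higher members, with 6 higher and 9 lower under 100 FPKM (all genes 23.95% and 19.3%) and 1 higher and 25 lower at or above it (all genes 18.4% and 45.9%). Likewise Map2 crRNA 1 had 4 higher and 9 lower under 100 FPKM (all genes 26.3% and 22.3%) and 2 higher and 25 lower at or above it (all genes 20.05% and 44.6%). Across members the Spearman's rho of the log2 fold change with the mean level was −0.51 with Rbfox3 crRNA 3 and −0.63 with Sik3 crRNA 8, over 83 members that share libraries. In the tdTomato line members on both sides rose, 20 of 34 under 100 FPKM and 39 of 51 at or above it with crRNA 7, where 4.53% and 36.3% of all genes on these sides rose.

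**Figure D4:**
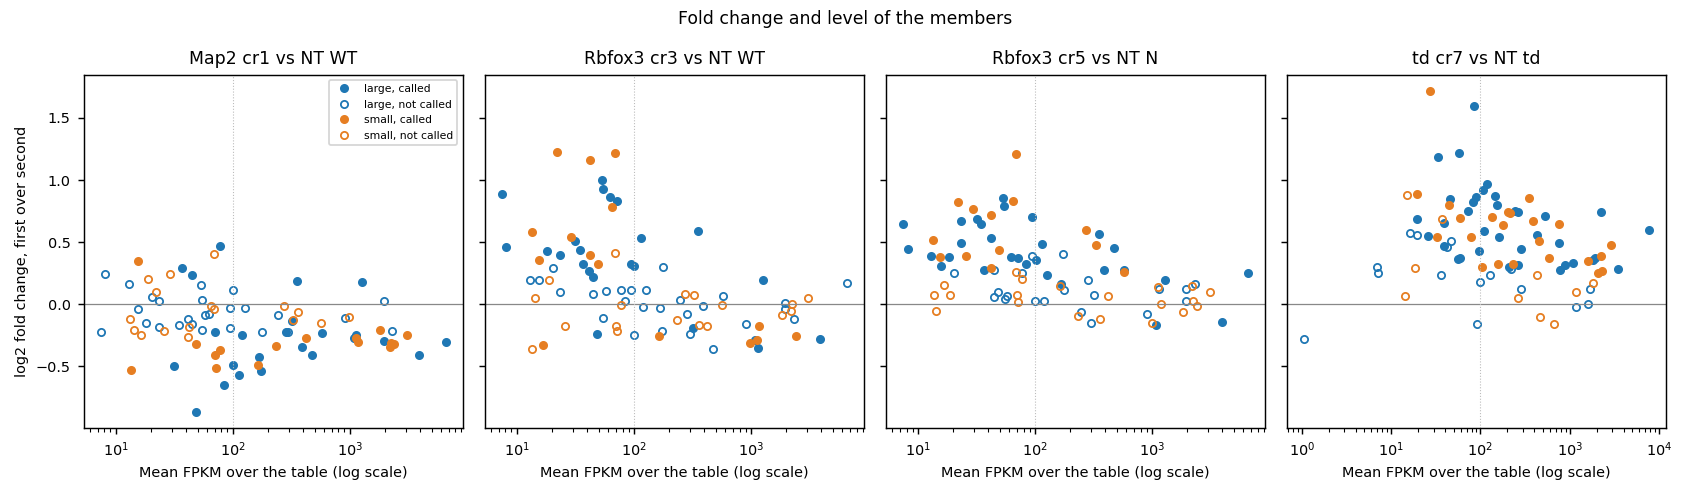
Log2 fold change (vertical axis) against the mean FPKM over the table (horizontal axis, log scale, dotted line at 100 FPKM) of each member in 4 comparisons, with large subunit members in blue, small subunit members in orange and filled points where the limma adjusted p was under 0.05. With Rbfox3 crRNA 3 the highest points lie under 100 FPKM and the lower calls mostly above it, and with tdTomato crRNA 7 called members lie above 0 on both sides.

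Members were also divided by shared sequence. With Rbfox3 crRNA 5, 24 of the 38 members with under 50% unique 75-base windows rose and none fell (median 0.32), and of the 43 others 16 rose and 2 fell (0.14), beside 12.6% higher and 13.1% lower over all genes. With tdTomato crRNA 7 the medians were 0.54 and 0.37. An annotated small nucleolar RNA lies inside 30 members, whose median with tdTomato crRNA 7 was 0.44, beside 0.50 for the 55 members without one.

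Comparisons that share no libraries could be set side by side. Over 83 members, the log2 fold changes of Rbfox3 crRNA 5 had a rho of 0.61 with those of tdTomato crRNA 4 and 0.67 with those of tdTomato crRNA 7, beside 0.36 and 0.37 over 11110 genes. Those of Rbfox3 crRNA 3 had 0.61 with tdTomato crRNA 7 (0.21 over all genes), and those of Map2 crRNA 1 had 0.10 (−0.03 over all genes). These are descriptions across genes, which share base composition, transcript length and shared sequence.

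The tables gave different levels for some members. Of 83 members above 1 FPKM in NT of both, 69 had a tdTomato-line level within 0.5 to 2 times the wild-type level, and 7 were over 5 times higher. Rpl37a was at 1672 FPKM in NT of the tdTomato line and 38.2 FPKM in NT of the WT set, Rps7 at 542 and 27.1 FPKM, and Rpl10l, a testis-expressed paralog of Rpl10, at 16.8 and 0.0758 FPKM. The tables were normalized separately and were not tested against each other, so cell line, depth and processing cannot be told apart here.

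Among the paralog pairs, levels differed by gene and the paralog with the longer symbol was not always the lower. In NT of the WT set Rpl36al was at 565 FPKM and Rpl36a at 38.9 FPKM, Rps27l at 189 FPKM and Rps27 at 24.7 FPKM, Rpl39l at 88.8 FPKM and Rpl39 at 82.8 FPKM, and Rpl22l1 at 67.6 FPKM and Rpl22 at 347 FPKM. Rpl36al rose by 0.40 ± 0.07 with tdTomato crRNA 4 and by 0.27 ± 0.08 with Rbfox3 crRNA 5, where Rpl36a rose by 1.67 ± 0.17 and 0.79 ± 0.10. Rpl3l and Rps4l, paralogs of Rpl3 and Rps4x, stayed at or under 1.53 and 0.74 FPKM in every library. Rps4l is annotated as a transcribed pseudogene, although the naming rule, which works on symbols, kept it as a member.

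Other ribosomal components that the naming rule leaves out were read beside the members. Fau, which is made as a fusion with a ubiquitin-like protein, and the scaffold Rack1 were both called higher with both tdTomato crRNAs. Fau averaged 632 ± 15.2 FPKM with crRNA 4 and 607 ± 68.3 FPKM with crRNA 7, against 411 ± 53.0 FPKM in NT (log2 fold changes 0.63 ± 0.08 and 0.56 ± 0.08). Both were called lower with Sik3 crRNA 1 and with Map2 crRNA 1, where Fau fell by 0.32 ± 0.07 and by 0.36 ± 0.07. With Rbfox3 crRNA 5 neither was called (Fau 0.07 ± 0.07, Rack1 −0.02 ± 0.05).

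Of 14 other mRNAs known to carry a TOP sequence, which code mainly for translation factors, 1 rose and 1 fell with tdTomato crRNA 4 (median log2 fold change −0.02, with 6.46% and 4.28% of all genes) and 4 rose and none fell with tdTomato crRNA 7 (0.05, with 6.72% and 11.3% of all genes). With Rbfox3 crRNA 5 none rose and 4 fell (−0.01), beside 12.6% and 13.1% of all genes. With Map2 crRNA 1, 8 rose and none fell (0.10), beside 25.8% and 23.9% of all genes. For each of these 3 counts of 0, limma gave 1 gene at an unadjusted p under 0.05. Eef1a1, the elongation factor that delivers tRNA, was at 5115 ± 34.8 FPKM with Rbfox3 crRNA 5, against 5080 ± 328 FPKM in NT of the N set.

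Of 15 regulators of mTOR and TOP mRNAs, 2 rose and 6 fell with tdTomato crRNA 7 (6.72% and 11.3% of all genes), and 1 rose and none fell with tdTomato crRNA 4 (6.46% and 4.28% of all genes), where 3 were lower at an unadjusted p under 0.05 (limma). With Rbfox3 crRNA 5 none rose (0 at an unadjusted p under 0.05, limma) and 2 fell, beside 12.6% and 13.1% of all genes. Larp1 fell by 0.30 ± 0.09 with tdTomato crRNA 7, and the mTOR inhibitor Deptor rose by 0.68 ± 0.10 with Sik3 crRNA 1 and 0.80 ± 0.10 with Map2 crRNA 1. Of 9 genes of ribosome collision and rescue tested in the wild-type table, 2 rose and 2 fell with Rbfox3 crRNA 5, where 12.6% and 13.1% of all genes did. Of 10 tested in the tdTomato-line table none rose (1 at an unadjusted p under 0.05, limma) and 4 fell with crRNA 7, where 6.72% and 11.3% of all genes did.

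RNAs without a poly(A) tail were read beside the members. Of the replication-dependent histone genes, whose mRNAs end in a stem-loop, 41 of 45 tested were higher with Rbfox3 crRNA 3 (summed FPKM 1599 to 1696, against 786 to 829 in NT), 35 with Mapt crRNA 6, 29 with Map2 crRNA 3, 23 with Sik3 crRNA 8 and 11 with Mapt crRNA 4, where 19.1%, 22.2%, 19.8%, 21.7% and 21.8% of all genes were higher. With Sik3 crRNA 1, 11 rose and 2 fell, and with Map2 crRNA 1, 7 rose and 6 fell, beside 23.6% and 21.1%, and 25.8% and 23.9%, of all genes. With Rbfox3 crRNA 5, 23 of 45 rose (summed FPKM 855.7 to 923, against 505.7 to 577.1 in NT of the N set), beside 12.6% of all genes. In the tdTomato line 26 of 53 rose with crRNA 4 (1247 to 1348 FPKM) and 11 of 53 with crRNA 7 (867.7 to 949.3 FPKM), against 577.7 to 612.6 FPKM in NT, beside 6.46% and 6.72% of all genes. Summed FPKM of 4 other RNAs without a tail was 2257 to 11790 with tdTomato crRNA 4 and 1825 to 20700 with crRNA 7, against 1079 to 8505 in NT, and these ranges overlapped and got no test. Of the 7 pseudogene symbols tested, 3 rose with tdTomato crRNA 7, beside 6.72% of all genes. None was called with Rbfox3 crRNA 5 (1 lower at an unadjusted p under 0.05, limma), where 12.6% of all genes rose and 13.1% fell. The part of poly(A) selection, transcript length and shared reads in the members' changes was not tested.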

How the data were processed

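Poly(A)-selected RNA of 39 libraries was sequenced as paired-end reads. The authors used Trim Galore for trimming, Subread for alignment (mm10) and featureCounts for counting, and deposited FPKM values in 2 tables, normalized separately, with 30 and 9 libraries. The tool versions, gene annotation and strand setting were not given in the sources used here, so overlapping genes and near-identical copies cannot be told apart. No counts were used, and depth (10.4 to 16.9 and 2.2 to 4.3 M reads) was estimated from the steps of low FPKM values. FPKM values were tested as log2(FPKM + 0.5) with limma 3.58.1 in R 4.3.3 (lmFit, eBayes with trend), over genes with a mean of at least 1 FPKM, on all libraries of a table, with the library series (LDK, LDL or LDM in the name) as covariate and Benjamini-Hochberg adjustment, at 0.05. The fit was tested on simulated data. Sums, ranks and sequences used Python 3.11.15.

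Members and gene lists were chosen with earlier results of these data known. Named members are the large and small subunit members with the largest called, non-overlapping change each way per comparison (3 each way for Rbfox3 crRNA 5 and the tdTomato crRNAs), the most and least abundant, and fixed paralogs, stalk, 5S and well-studied members. Alternatives were a pseudocount of 1, no filter, no series term, rescaled FPKM, a removed length trend, a replicate block, LDK libraries only and each library left out. Replicate numbers came from the titles, and same-numbered samples correlated in every pair above 0.1 in 1 of 14 comparisons (tdTomato crRNA 7 against NT). No 2 libraries held identical values. Some genes of these lists are not reported here. Reads of the pseudogene symbols and of Rps27rt are limited by shared sequence.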

Additional observations from a re-analysis of the deposited data

Results flagged for a closer look

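Rpl8 moved in opposite directions in the 2 tables. The mean log2 difference between crRNA and NT libraries was 0.31 in the tdTomato line and −0.33 in the WT set, and so differed by 0.64 between them. All 6 tdTomato crRNA libraries lay above their NT libraries, and all 21 crRNA libraries of the WT set lay below theirs. The difference between the sets was not tested, since the tables were normalized separately.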

How the results depend on the processing

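The medians of the log2 fold change stayed within the replicate spread in 377 of 384 combinations of comparison, subunit and setting. Of 2523 pairs of a called named member and a setting, 2109 kept direction and call, 413 lost the call and 1 changed sign: Rps27l with tdTomato crRNA 4 had −0.10 with the length trend removed. The cause was not tested for the following, and member counts stand without counts over all genes except where these are given. With the length trend removed, the large subunit median was 0.18 with Rbfox3 crRNA 5, 0.27 and 0.34 with tdTomato crRNA 4 and 7 and 0.11 for crRNA 7 against crRNA 4, and with rescaled FPKM it was 0.62 with crRNA 7 and 0.11 for crRNA 7 against crRNA 4. With the length trend removed, 12 members were higher with Map2 crRNA 1, 24 higher and 4 lower with tdTomato crRNA 4, and 15, 6, 1, 10, 4 and 2 lower with Map2 crRNA 3, Rbfox3 crRNA 5, Sik3 crRNA 8 against 1, Map2 crRNA 3 against 1, Mapt crRNA 6 against 4 and tdTomato crRNA 7. Without the series term, 9 were higher for Sik3 crRNA 8 against 1, 4 for Mapt crRNA 6 against 4, 18 (0 lower) for tdTomato crRNA 4 and 22 for crRNA 7, and 22 were lower for Map2 crRNA 1, 0 for Rbfox3 crRNA 5, 8 for NT of the N set and 1 for Map2 crRNA 3 against 1. In the LDK libraries alone, 4 were higher for Sik3 crRNA 1, and 23, 31 and 2 lower for Map2 crRNA 3, Mapt crRNA 4 and Mapt crRNA 6 against 4. Over all genes, 219 were higher and 37 lower with tdTomato crRNA 4 and 192 and 109 with crRNA 7 without the series term, and 438 and 250, and 652 and 385, with the length trend removed. Rescaled FPKM gave 14 higher for Mapt crRNA 6. No filter gave 11 higher for Sik3 crRNA 8 against 1, and 1 and 2 lower for Rbfox3 crRNA 5 and Map2 crRNA 3 against 1, and a pseudocount of 1 gave 1 lower for Rbfox3 crRNA 5.

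With one replicate left out, the higher counts ranged from 3 to 8 (Map2 crRNA 1), 22 to 35 (Map2 crRNA 3 against 1), 3 to 5 (Mapt crRNA 6 against 4), 4 to 8 (Sik3 crRNA 1), 6 to 19 (Sik3 crRNA 8 against 1) and 32 to 41 (tdTomato crRNA 4). The lower counts ranged from 21 to 33 (Map2 crRNA 1), 0 to 4 (Map2 crRNA 3 against 1), 4 to 13 (Map2 crRNA 3), 10 to 16 (Mapt crRNA 4), 10 to 15 (Mapt crRNA 6), 7 to 16 (NT of the N set against the WT set), 6 to 13 (Rbfox3 crRNA 3), 1 to 3 (Rbfox3 crRNA 5) and 1 to 2 (tdTomato crRNA 4).

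With the replicate block the counts of higher members were 47 with tdTomato crRNA 4, 57 with tdTomato crRNA 7, 40 with Rbfox3 crRNA 5 and 9 for Mapt crRNA 6 against 4, and no count moved by over 1.5 times. Same-numbered libraries correlated at −0.02 to 0.40 over the 14 comparisons, and outside tdTomato crRNA 7 against NT they share only a number. No block fit exists for NT of the N set against NT of the WT set, whose numbers differ, and no LDK fit for the N set. Depth was 10.4 to 16.9 M reads in the wild-type table and 2.2 to 4.3 M in the tdTomato-line table.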
